A study of Rattus norvegicus with 24 samples.

Results

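The collagen genes of the rat dorsal root ganglion (DRG), the cluster of sensory nerve cell bodies beside the spinal cord, were taken as every gene whose symbol begins with Col directly followed by a digit. The rule found 28 genes in 29 entries, out of 17236 gene IDs in 17811 entries of the whole table. One match, Col4a3bp, encodes a ceramide transfer protein and not a collagen chain. It averaged 40.1 ± 1.56 FPKM in OVX-TPTD rats, 40.5 ± 1.31 FPKM in OVX-vehicle rats and 40.4 ± 2.10 FPKM in Sham-vehicle rats (SD, n = 8 each), and it is left out of every count below. Of the 27 remaining genes, 26 were above 0 FPKM in all 24 rats and are described here. The other, Col17a1, a collagen of epithelial attachment plaques, was above 0 in 19 rats with a mean of 3.71 counts.

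The ganglia came from spinal levels L4 and L5 of female Sprague-Dawley rats that were 20 weeks old. The rats formed 3 groups of 8. OVX-TPTD rats had both ovaries removed at 12 weeks of age and then, over the last 4 weeks, received teriparatide (TPTD, the N-terminal fragment of human parathyroid hormone) under the skin at 30 µg/kg, 3 times a week. OVX-vehicle rats had the same operation and saline, and Sham-vehicle rats had a sham operation and saline. All tissue was taken 8 weeks after surgery, and the rats sequenced were those nearest their group averages. The whole ganglion was sequenced, so that fewer cells of a type and less RNA per cell cannot be told apart. The library titled OVX-vehicle replicate 1 carries a sham entry in its surgery field. It was kept with OVX-vehicle, and the collagen counts are also given without it. Totals ran between 15573490 and 19069926 counts per rat, and the neuron markers (all 8 present, summed to between 10380 and 12510 FPKM), Schwann cell markers (8 of 8, 2985 to 4596 FPKM) and satellite glia markers (6 of 6, 2007 to 2807 FPKM) were present in every rat.

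Collagens are helical proteins of the extracellular matrix, each molecule wound from alpha chains that separate genes encode. Fibrillar collagens such as types I, III and V assemble into the fibres of connective tissue, type IV forms the network of basement membranes, FACIT collagens sit on the surface of fibrils, and multiplexins and transmembrane collagens lie at or near cell membranes. In a ganglion, collagens are known in the capsule and in the endoneurium, where fibroblasts make fibres and Schwann cells, satellite glia and vessels lie on basement membranes.

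Fibrillar chains made up most of the measured collagen transcript. Their 10 measured genes summed to 250.2 ± 41.2 FPKM in OVX-TPTD rats, 247 ± 22.7 FPKM in OVX-vehicle rats and 248 ± 27.7 FPKM in Sham-vehicle rats (SD, n = 8 each). All 26 collagens together summed to 386 ± 52.4, 384 ± 34.3 and 388 ± 42.6 FPKM in the same order of groups. The group means thus lay closer together than 1 SD between rats. FPKM is the number of sequenced fragments scaled to transcript length and to the fragments mapped in the library, so levels may be set beside each other between genes. A few genes held most of the signal, since, with 1 entry of Col1a2 counted, the 2 most abundant gave 34.3% and the 6 most abundant 66.0% of summed collagen FPKM. Of the genes, 12 averaged at least 10 FPKM, 8 lay at 1 to 10 FPKM and 6 lay below 1 FPKM. Not every listed collagen had an entry: 10 of 11 fibrillar, 3 of 6 type IV, 2 of 6 type VI and 4 of 10 FACIT genes did. Sums and shares here cover measured genes only, and the weight of the classes depends on which genes were measured.

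**Figure D1:**
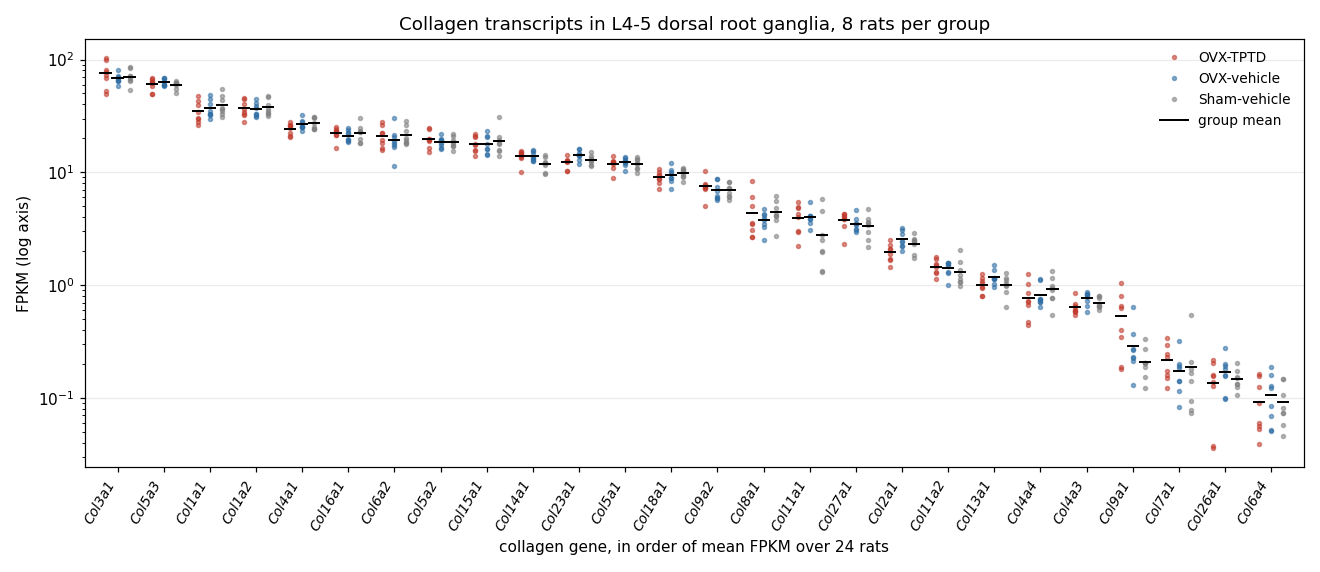
FPKM (log axis) of the 26 collagen genes in L4 and L5 dorsal root ganglia, in order of their mean over 24 rats. Each point is 1 rat, colours mark the OVX-TPTD, OVX-vehicle and Sham-vehicle groups of 8, and short black lines are group means. Levels span from Col3a1 near 71 FPKM to Col6a4 near 0.1 FPKM, and the 3 groups overlap for every gene.

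Col3a1 (rn6 chromosome 9, 52023295 to 52059221), the single chain of type III collagen, was the most abundant. Its lowest, median and highest values were 49.5, 75.2 and 102.5 FPKM in OVX-TPTD rats, 58.3, 67.1 and 81.4 FPKM in OVX-vehicle rats, and 54.1, 69.6 and 85.1 FPKM in Sham-vehicle rats. OVX-TPTD rats held both the highest and the lowest value, and their SD of 19.1 FPKM stood against 6.85 FPKM in OVX-vehicle rats. Next by single entries of the table was Col5a3, a chain of type V collagen, with 60.5 ± 7.50 FPKM in OVX-TPTD rats, 63.2 ± 4.72 FPKM in OVX-vehicle rats and 59.8 ± 4.47 FPKM in Sham-vehicle rats. Col5a3 was thus more abundant than the other type V chains, Col5a2 (19.8, 18.6 and 18.5 FPKM) and Col5a1 (11.9, 12.4 and 11.9 FPKM), in all 3 groups.

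The 2 chains of type I collagen followed. Col1a1 averaged 34.8 ± 7.89 FPKM in OVX-TPTD rats, 36.9 ± 6.69 FPKM in OVX-vehicle rats and 39.8 ± 8.17 FPKM in Sham-vehicle rats. Col1a2 averaged 36.9 ± 6.29, 36.3 ± 4.93 and 38.1 ± 6.25 FPKM. Col1a2 has 2 entries in the table, and the level above, like all tests and sums here, is that of the first. How reads were assigned between the entries was not tested. The entries together gave 63.8 ± 10.6 FPKM in OVX-TPTD rats, 62.9 ± 8.76 FPKM in OVX-vehicle rats and 66.0 ± 10.9 FPKM in Sham-vehicle rats. Counted so, Col1a2 averaged above Col5a3 in OVX-TPTD and Sham-vehicle rats, and slightly below it in OVX-vehicle rats.

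Of the remaining abundant collagens, Col4a1, a chain of the common basement membrane network, averaged 24.3 ± 2.77 FPKM in OVX-TPTD rats, 26.7 ± 2.73 FPKM in OVX-vehicle rats and 27.2 ± 3.19 FPKM in Sham-vehicle rats. The FACIT gene Col16a1 averaged 22.2 ± 2.65, 21.2 ± 2.35 and 22.5 ± 4.01 FPKM in the same groups. Between 9 and 22 FPKM lay Col6a2 of the beaded filaments of type VI, the multiplexins Col15a1 and Col18a1, the FACIT gene Col14a1 and the transmembrane gene Col23a1, beside Col5a1 and Col5a2. Col9a2, Col8a1, Col11a1, Col27a1, Col2a1, Col11a2 and Col13a1 averaged 1 to 8 FPKM, among them the cartilage chains Col2a1, Col11a1, Col11a2 and Col9a2. Col8a1, a short-chain collagen of vessel and eye membranes, varied widely in OVX-TPTD rats, with 2.68, 3.52 and 8.42 FPKM (lowest, median, highest, the last in replicate 5), against 2.53, 3.86 and 4.77 FPKM in OVX-vehicle rats and 2.70, 4.19 and 6.14 FPKM in Sham-vehicle rats.

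At the low end, Col4a4 and Col4a3, chains of a type IV network known from kidney, averaged below 1 FPKM, as did Col9a1, Col7a1, Col26a1 and Col6a4. In mean counts over the 24 rats these were 18.9 for Col4a4, 68.7 for Col4a3, 26 for Col9a1, 34.4 for Col7a1, 8.04 for Col26a1 and 12 for Col6a4. At such counts the precision of single values is limited, and Col26a1 did not reach the count filter of the edgeR fit.

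Rats of 1 group differed more for collagens than for most genes. The within-group SD of log2 FPKM, computed over the 20 collagens with a mean of at least 1 FPKM, lay between 0.14 for Col5a3 and 0.53 for Col11a1. All 20 lay above the median of the 11380 entries at that level, 0.14 (0.1354 before rounding, against 0.1402 for Col5a3). Col11a1 was above 98.5% and Col8a1, with 0.44, above 97.3% of those entries. Col5a3, Col23a1 and Col4a1 varied least among the 20. The entries were not matched for counts, and the part of low counts in these spreads was not tested.

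The first comparison asked what ovariectomy did to collagen transcripts. Between OVX-vehicle and Sham-vehicle rats, Col14a1 and Col11a1 averaged higher after ovariectomy, and 12 collagens lay on the higher side and 13 on the lower side of 0. No collagen passed an adjusted p of 0.05 in edgeR's quasi-likelihood test, which called 0.00791% of the 12645 genes tested (1 gene). At an unadjusted p under 0.05 stood 2 of 25 collagens, against 4.82% of all genes, and the exact permutation test of mean log2 FPKM gave 2 of 26 against 5.12% of 13024 entries. The median log2 difference was -0.01 over the collagens and 0.00 over all genes (-0.00612 and 0.0019).

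Col14a1 (rn6 chromosome 7, 95054877 to 95274073), which binds to the surface of fibrils, had a lowest, median and highest value of 12.5, 13.6 and 15.6 FPKM in OVX-vehicle rats, against 9.57, 12.2 and 14.3 FPKM in Sham-vehicle rats. All 8 OVX-vehicle rats were above the Sham-vehicle median, although the groups overlapped. The log2 difference was 0.21 (SE 0.083, edgeR p = 0.0171, adjusted p = 0.864; exact permutation p = 0.0157). OVX-TPTD rats had 10.1, 14.4 and 15.4 FPKM, with 7 of 8 above the Sham-vehicle median and replicate 3 alone below it. Their log2 difference from Sham-vehicle was 0.21 (SE 0.083, edgeR p = 0.018, adjusted p = 0.284; exact permutation p = 0.0448).

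Col11a1 (rn6 chromosome 2, 216863428 to 217056523), a minor fibrillar chain that is best known from cartilage, showed the widest spread of the collagens at 1 FPKM or more. It had 3.06, 3.98 and 5.44 FPKM in OVX-vehicle rats, against 1.29, 2.25 and 5.81 FPKM in Sham-vehicle rats. Sham-vehicle replicates 1 and 5 stood at 4.50 and 5.81 FPKM, within or above the range of the OVX-vehicle rats, and the other 6 lay between 1.29 and 2.81 FPKM, below all of them. The log2 difference was 0.51 (SE 0.237, edgeR p = 0.0398, adjusted p = 0.864; exact permutation p = 0.0309). In OVX-TPTD rats Col11a1 had 2.21, 4.16 and 5.43 FPKM, a log2 difference of 0.50 from Sham-vehicle (SE 0.237, edgeR p = 0.0448, adjusted p = 0.324; exact permutation p = 0.0642). Without the library of conflicting label, the OVX-vehicle difference was 0.51 and missed an unadjusted edgeR p of 0.05, so that 1 collagen, Col14a1, was left. The count was also 1 without Sham-vehicle replicate 2, 3, 6 or 7 or without OVX-vehicle replicate 4 or 7. The share of all genes at that p is not given for these settings.

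Of 6 meningeal and perineurial markers tested in the same comparison, 3 had an unadjusted edgeR p under 0.05, against 4.82% of all genes, and none an adjusted p under 0.05. All 3 were lower in OVX-vehicle rats, and the median log2 difference of the 6 was -0.48. Their summed level was 19.1 to 36.7 FPKM in OVX-TPTD rats, 20.9 to 38.8 FPKM in OVX-vehicle rats and 23.8 to 50.3 FPKM in Sham-vehicle rats, with no marker below 0.1 FPKM on average. The part of these cells in the collagen values was not tested. Cartilage and bone markers (11 present) summed to 60.2 to 80.1 FPKM in OVX-TPTD rats, 57.0 to 88.9 FPKM in OVX-vehicle rats and 62.8 to 77.5 FPKM in Sham-vehicle rats. Most of the sum was Lect1, with 43.3 ± 5.72, 49.2 ± 12.2 and 47.2 ± 5.27 FPKM in these groups, and Matn1, Matn3 and Sp7 averaged below 0.1 FPKM. None of the 8 tested had an edgeR p under 0.05 in any comparison.

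**Figure D2:**
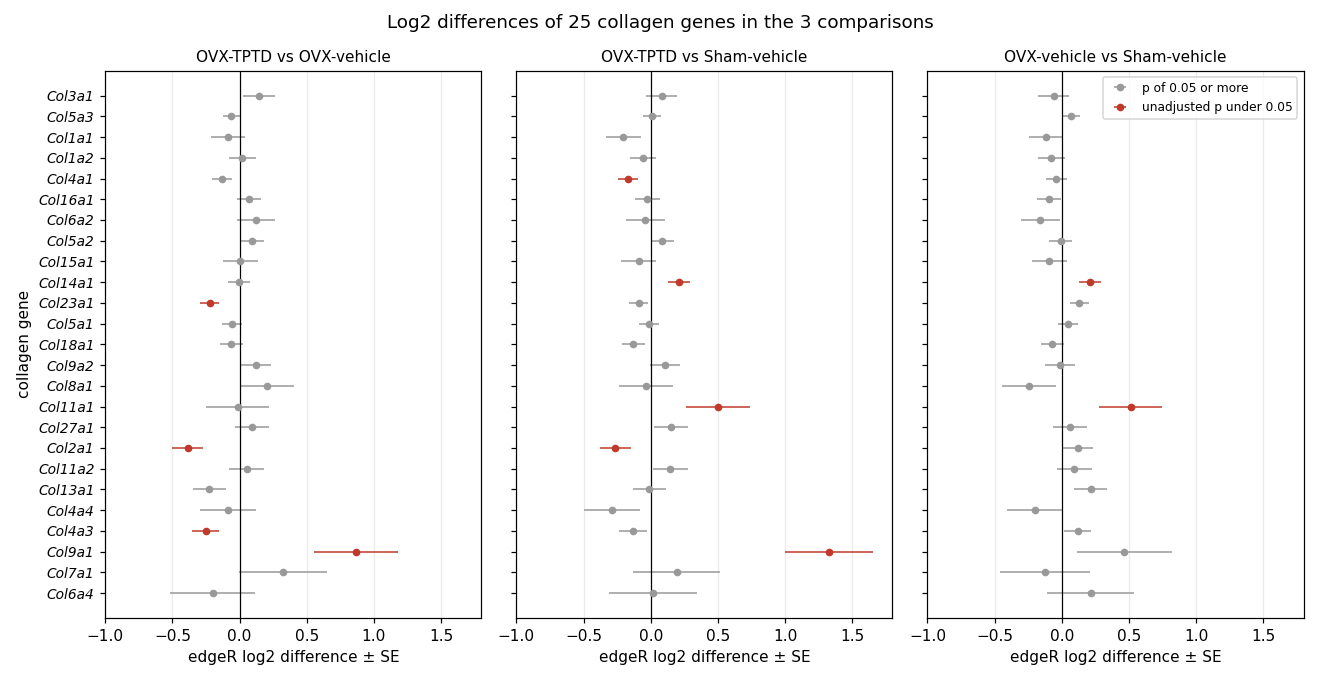
Log2 differences (edgeR, ± SE) of the 25 collagen genes tested, in order of abundance from top to bottom, for OVX-TPTD against OVX-vehicle, OVX-TPTD against Sham-vehicle and OVX-vehicle against Sham-vehicle. Red points have an unadjusted p under 0.05, and none passes an adjusted p of 0.05. Most genes lie within 0.25 of 0 (21, 21 and 23 of 25), and Col9a1 lies farthest to the right in both comparisons of OVX-TPTD rats.

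The second comparison asked what teriparatide did in ovariectomised rats. OVX-TPTD rats averaged more Col9a1 and less Col2a1, Col23a1 and Col4a3 than OVX-vehicle rats. Again no collagen passed an adjusted p of 0.05, and neither did any other gene in edgeR (0% of 12645, with 1 gene called by DESeq2), while 4 of 25 collagens had an unadjusted edgeR p under 0.05 against 3.65% of all genes (462). The exact permutation test gave 3 of 26, all lower, against 3.81% of entries. Over the 25 collagens, 12 lay higher and 13 lower, with a median log2 difference of 0.00 (-0.002, as for all genes with -0.00196).

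Col2a1 (rn6 chromosome 7, 139455242 to 139483997), the chain of type II collagen of cartilage, had 1.46, 1.99 and 2.50 FPKM (lowest, median, highest) in OVX-TPTD rats, against 2.02, 2.42 and 3.21 FPKM in OVX-vehicle rats. Of the OVX-TPTD rats, 7 of 8 were below the OVX-vehicle median, and the ranges overlapped between 2.02 and 2.50 FPKM. The log2 difference was -0.39 (SE 0.116, edgeR p = 0.0025, adjusted p = 0.995; exact permutation p = 0.00808). Sham-vehicle rats had 1.73, 2.42 and 2.91 FPKM, and against them OVX-TPTD rats differed by -0.27 (SE 0.116, edgeR p = 0.0311, adjusted p = 0.302; exact permutation p = 0.0608).

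Col23a1 (rn6 chromosome 10, 36741434 to 37028365), a transmembrane collagen, had 10.2, 12.6 and 14.1 FPKM in OVX-TPTD rats, against 11.96, 14.3 and 16.2 FPKM in OVX-vehicle rats. All 8 OVX-TPTD rats were below the OVX-vehicle median. The log2 difference was -0.22 (SE 0.0708, edgeR p = 0.00424, adjusted p = 0.995; exact permutation p = 0.0131). Sham-vehicle rats lay between, with 11.3, 12.8 and 15.2 FPKM. The other transmembrane gene above 0 in all rats, Col13a1, averaged 1.01 ± 0.165 FPKM in OVX-TPTD rats, 1.18 ± 0.172 FPKM in OVX-vehicle rats and 1.01 ± 0.193 FPKM in Sham-vehicle rats, a log2 difference of -0.23 between the first pair (SE 0.122, edgeR p = 0.0753; exact permutation p = 0.0575).

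Col9a1 (rn6 chromosome 9, 30419001 to 30502307), a FACIT chain known from the surface of cartilage fibrils, had the largest fitted difference of the 25. It had 0.180, 0.512 and 1.05 FPKM in OVX-TPTD rats, 0.129, 0.247 and 0.635 FPKM in OVX-vehicle rats, and 0.123, 0.204 and 0.33 FPKM in Sham-vehicle rats. OVX-TPTD replicates 2, 4, 6 and 8 (1.05, 0.807, 0.653 and 0.621 FPKM) were high, replicates 3 and 5 (0.189 and 0.180 FPKM) lay among the sham rats, and OVX-vehicle replicate 8 alone reached their level with 0.635 FPKM. Against OVX-vehicle the log2 difference was 0.87 (SE 0.313, edgeR p = 0.0104, adjusted p = 0.995), and the exact permutation p was 0.0805. Without OVX-vehicle replicate 8 it was 1.13, and without OVX-TPTD replicate 2 it was 0.66. These values rest on 9 to 79 counts per rat. The cartilage chains did not share a direction in this comparison, since Col9a2 differed by 0.12 (SE 0.111), Col11a1 by -0.01 and Col2a1 by -0.39 on the log2 scale.

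Col4a3 (rn6 chromosome 9, 88357751 to 88484376) had 0.541, 0.605 and 0.843 FPKM in OVX-TPTD rats, against 0.578, 0.800 and 0.875 FPKM in OVX-vehicle rats. The highest OVX-TPTD value came from replicate 1, and 7 of 8 lay below the OVX-vehicle median. The log2 difference was -0.25 (SE 0.102, edgeR p = 0.0196, adjusted p = 0.995; exact permutation p = 0.0266). With the rat of conflicting label counted as sham it was -0.22 and no longer at an unadjusted edgeR p under 0.05, which left 3 of 25 collagens in this comparison. The share of all genes at that p is not given for this setting. Sham-vehicle rats had 0.603, 0.669 and 0.806 FPKM of Col4a3, and its partner chain Col4a4 differed by -0.09 between OVX-TPTD and OVX-vehicle (SE 0.209).

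**Figure D3:**
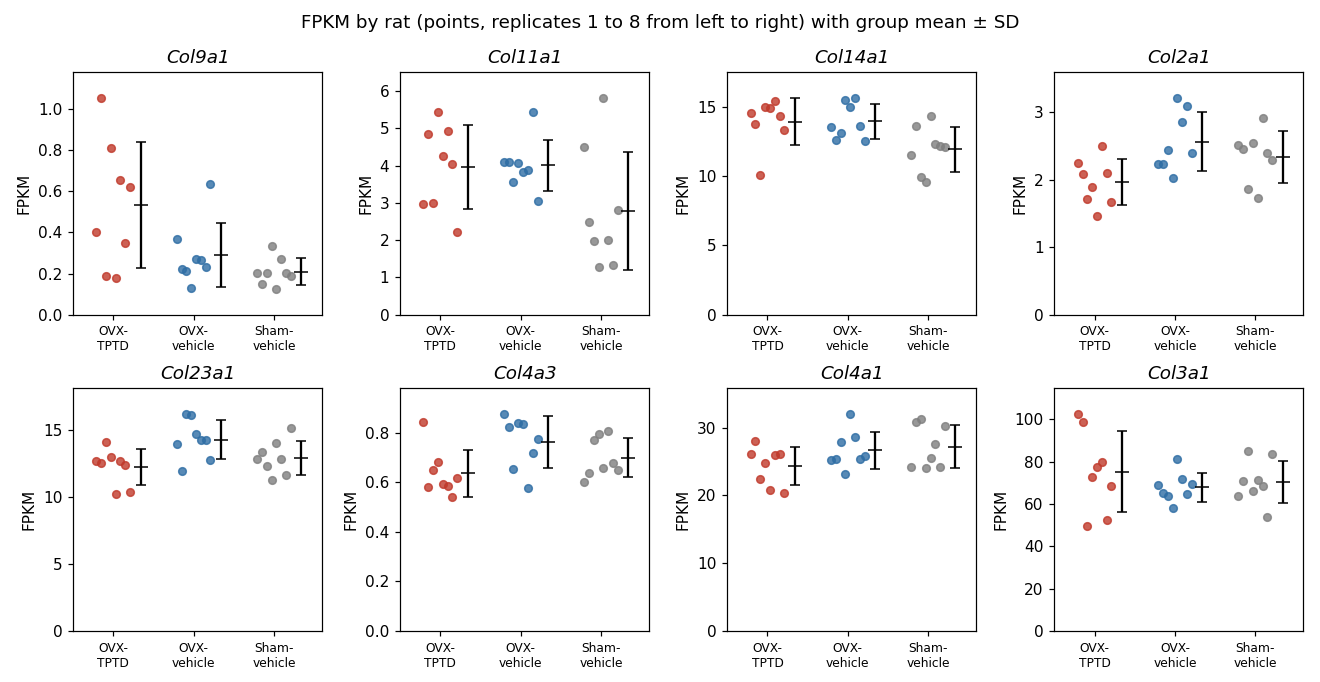
FPKM by rat of 8 collagen genes in the OVX-TPTD, OVX-vehicle and Sham-vehicle groups. Points are rats (replicates 1 to 8 from left to right) and the black marks are group means ± SD. All panels overlap between groups, with 4 OVX-TPTD rats high for Col9a1, 2 Sham-vehicle rats high for Col11a1, and a wide spread of Col3a1 in OVX-TPTD rats.

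The third comparison set OVX-TPTD rats against Sham-vehicle rats, and it shares its libraries with the other two. It called 0.0316% of the 12645 genes (4 genes), none of them a collagen. At an unadjusted p under 0.05 were 5 of 25 collagens, 3 higher and 2 lower, against 15.1% of all genes, and by the exact permutation test 2 of 26 (Col9a1 and Col14a1) against 13.9% of entries. The median log2 difference of the collagens was -0.01, and 11 were higher and 14 lower. Col9a1 was the farthest from 0, with a log2 difference of 1.33 (SE 0.329, edgeR p = 0.000403, adjusted p = 0.158; exact permutation p = 0.00932), and 6 of 8 OVX-TPTD rats lay above the Sham-vehicle median. Col4a1 had 20.4, 25.4 and 28.0 FPKM in OVX-TPTD rats, against 24, 26.5 and 31.2 FPKM in Sham-vehicle rats, a log2 difference of -0.17 (SE 0.0752, edgeR p = 0.0301, adjusted p = 0.302; exact permutation p = 0.0777). The count of 5 was 2 without OVX-TPTD replicate 5, and 3 without OVX-TPTD replicate 8 or without Sham-vehicle replicate 2, 6 or 8. The share of all genes at that p is not given for these settings. Whether collagens changed more than genes at large was therefore not tested.

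By class, the type IV genes (Col4a1, Col4a3 and Col4a4) summed to 25.7 ± 2.73 FPKM in OVX-TPTD rats, 28.2 ± 2.67 FPKM in OVX-vehicle rats and 28.8 ± 3.34 FPKM in Sham-vehicle rats. The 4 measured FACIT genes summed to 44.2 ± 5.21, 42.4 ± 3.18 and 41.6 ± 3.32 FPKM, and the multiplexins to 27.0 ± 3.74, 27.4 ± 4.01 and 28.8 ± 5.86 FPKM. The transmembrane genes summed to 13.3 ± 1.41 FPKM in OVX-TPTD rats, 15.5 ± 1.52 FPKM in OVX-vehicle rats and 13.96 ± 1.28 FPKM in Sham-vehicle rats, nearly all of it Col23a1. Within each class the ranges of the groups overlapped.

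Some collagens varied together between rats of the same group. After the mean of each group was subtracted from log2 FPKM, 6 of the 9 pairs listed as partner chains or chromosome neighbours could be computed over the 24 rats, with p from 100000 resamples of a permutation test that treats the rats as independent, adjusted over the 6. Col1a1 and Col1a2, the chains of type I collagen, followed each other with r = 0.966 (Spearman rho = 0.952, permutation p = 1e-05 for both, the smallest these resamples can give, adjusted p = 3e-05). The correlation was 0.981 within OVX-TPTD rats, 0.935 within OVX-vehicle rats and 0.970 within Sham-vehicle rats, and 0.955 without the 2 rats farthest from the median.

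Col1a1 and Col3a1 gave r = 0.849 (rho = 0.884, permutation p = 1e-05 for both, adjusted p = 3e-05), with 0.935, 0.663 and 0.926 within OVX-TPTD, OVX-vehicle and Sham-vehicle rats and 0.807 without the 2 farthest rats. Col5a1 and Col5a2 gave r = 0.786 (rho = 0.759, permutation p = 2e-05 and 7e-05, adjusted p = 4e-05 and 0.00014), with 0.844, 0.511 and 0.899 within the groups and 0.673 without the 2 farthest rats. The cartilage pairs did not pass. Col9a1 and Col2a1 gave r = 0.415 (rho = 0.352, permutation p = 0.0443 and 0.0924, adjusted p = 0.0664 and 0.111), with 0.389 or 0.232 without the 2 rats farthest from the median of Col9a1 or of Col2a1, and 0.0152 where group means were not subtracted. Col11a1 and Col2a1 gave r = -0.08 (rho = -0.01, permutation p = 0.725 and 0.947, adjusted p the same), and 0.224 without the 2 farthest rats.

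Over all 325 pairs of collagens, r was above 0 in 240, with a median of 0.197. An adjusted p under 0.05 was reached by 44 pairs, 43 of them positive. Pairs of other genes were not computed, so whether collagens moved together more than genes at large was not tested. Col3a1 and its neighbour Col5a2 (rn6 chromosome 9, 52091088 to 52238735), which lies beyond the 3′ end of Col3a1 on the other strand, gave r = 0.904 (rho = 0.869, permutation p = 1e-05 and 2e-05, adjusted p = 0.000325 and 0.000591). Their r was 0.961, 0.902 and 0.803 within OVX-TPTD, OVX-vehicle and Sham-vehicle rats and 0.866 without the 2 farthest rats. The multiplexin Col15a1 followed Col1a1 with r = 0.860 (rho = 0.886, permutation p = 1e-05 for both, adjusted p = 0.000325 and 0.000406; 0.951, 0.696 and 0.950 within the groups and 0.840 without the 2 farthest rats). Col1a2 had 10 partners with an adjusted p under 0.05, Col1a1, Col5a1 and Col5a2 had 9 each, Col3a1 had 8, Col15a1 had 7, and Col18a1 and Col4a1 had 6 each. No partner was found for 9 of 26, namely Col11a1, Col11a2, Col13a1, Col14a1, Col2a1, Col4a3, Col6a4, Col9a1 and Col9a2. The single negative pair, Col26a1 with Col4a4, joined 2 genes of few counts (r = -0.55, rho = -0.54, permutation p = 0.00466 and 0.00784, adjusted p = 0.0409 and 0.0671, -0.44 without the 2 farthest rats, and -0.53, -0.80 and -0.57 within OVX-TPTD, OVX-vehicle and Sham-vehicle rats).

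**Figure D4:**
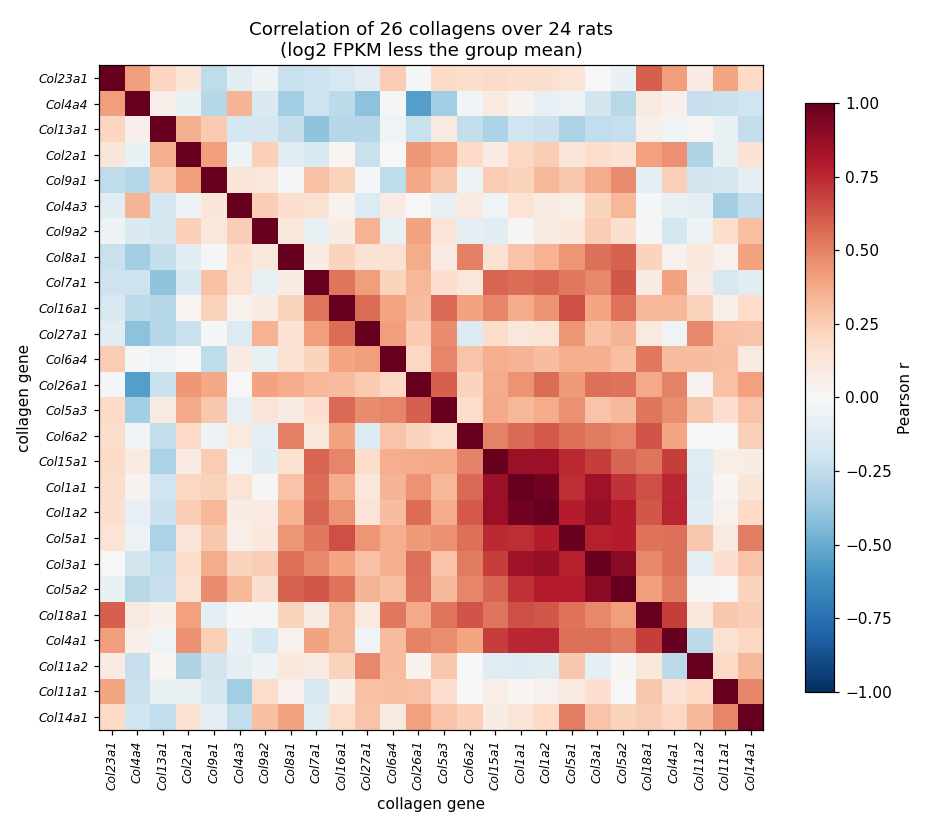
Pearson r of log2 FPKM, less the group mean, for each pair of the 26 collagen genes over 24 rats (both axes list the genes, ordered by average-linkage clustering). Dark red marks a block with Col1a1, Col1a2, Col3a1, Col5a1, Col5a2 and Col15a1, in which r lies between 0.579 (Col5a2 with Col15a1) and 0.966 (Col1a1 with Col1a2), while Col2a1, Col9a1, Col11a1 and Col14a1 lie outside it.

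The rats that carried this block were found in every group. OVX-TPTD replicates 1 and 2 (summed collagen 456 and 444 FPKM), OVX-vehicle replicate 5 (451 FPKM) and Sham-vehicle replicates 3 and 8 (461 and 436 FPKM) were the 5 highest of the 24. In OVX-TPTD replicate 1, OVX-vehicle replicate 5 and Sham-vehicle replicate 8, 22 of the 26 collagens lay above their group mean. OVX-TPTD replicate 3 was the lowest with 302 FPKM and 5 of 26 above the group mean. Median deviations over all entries were between -0.03 and 0.02 on the log2 scale in every rat, and over the 26 collagens between -0.36 and 0.25.

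Some cell type markers moved with these genes over rats. The 12 collagens named for abundance or for their p were set against the mean of 7 marker lists, 84 relations in all, of which 6 had an adjusted p under 0.05. Col1a1 and the 8 Schwann cell markers gave r = 0.721 (rho = 0.710, permutation p = 7e-05 and 0.00016, adjusted p = 0.00504 and 0.00672), with 0.918, 0.344 and 0.847 within OVX-TPTD, OVX-vehicle and Sham-vehicle rats and 0.577 without the 2 farthest rats. Col3a1 with the 7 fibroblast markers gave r = 0.625 (rho = 0.614, permutation p = 0.00098 and 0.00136, adjusted p = 0.0137 and 0.0286), with 0.797, 0.444 and 0.133 within the groups and 0.563 without the 2 farthest rats. Col1a2 and Col3a1 with Schwann cell markers were the next pair of such relations (r = 0.655 and 0.656, rho = 0.640 and 0.603, permutation p = 0.00047 and 0.00054 for r and 0.00089 and 0.00224 for rho, adjusted p = 0.0113 for each r, 0.507 and 0.637 without the 2 farthest rats). The fibroblast list had a median log2 difference of -0.155 between OVX-vehicle and Sham-vehicle rats, with 1 of 7 lower at an edgeR p under 0.05 (against 4.82% of all genes). Between OVX-TPTD and OVX-vehicle rats its median was 0.07, with 0 of 7. Between OVX-TPTD and Sham-vehicle rats its median was -0.04, with 1 of 7 lower (against 15.1%).

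Col2a1 stood apart from the block here as well. It went with the 8 neuron markers (r = 0.694, rho = 0.725, permutation p = 0.00012 and 6e-05, adjusted p = 0.00504 for both; 0.786, 0.666 and 0.614 within OVX-TPTD, OVX-vehicle and Sham-vehicle rats; 0.705 without the 2 farthest rats). With the 6 satellite glia markers its r was -0.65 (rho = -0.60, permutation p = 0.00089 and 0.00248, adjusted p = 0.0137 and 0.0347; -0.87, -0.38 and -0.74 within the groups; -0.60 without the 2 farthest rats). Neuron markers had a median log2 difference of -0.02 between OVX-TPTD and OVX-vehicle rats and none of 8 at an edgeR p under 0.05. Col2a1 differed by -0.39 between these groups. Between OVX-TPTD and Sham-vehicle rats the neuron median was -0.05, with 1 of 8 lower at that p (against 15.1% of all genes). Col2a1 differed by -0.265 there. Schwann cell markers had 2 of 8 at an edgeR p under 0.05 between OVX-TPTD and OVX-vehicle rats (against 3.65% of all genes), both lower, and summed to 2985 to 3834 FPKM in OVX-TPTD rats, against 3087 to 4596 FPKM in OVX-vehicle rats. Satellite glia markers had 2 of 6 at an edgeR p under 0.05 between OVX-vehicle and Sham-vehicle rats (against 4.82%), both higher. The median log2 difference of the 6 was -0.01, so the list as a whole was not higher. The markers summed to 2127 to 2564 FPKM in OVX-vehicle rats, against 2007 to 2444 FPKM in Sham-vehicle rats. Most of that sum was Apoe, 1 of these 2 genes. The part of cell composition in these values was not tested.

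**Figure D5:**
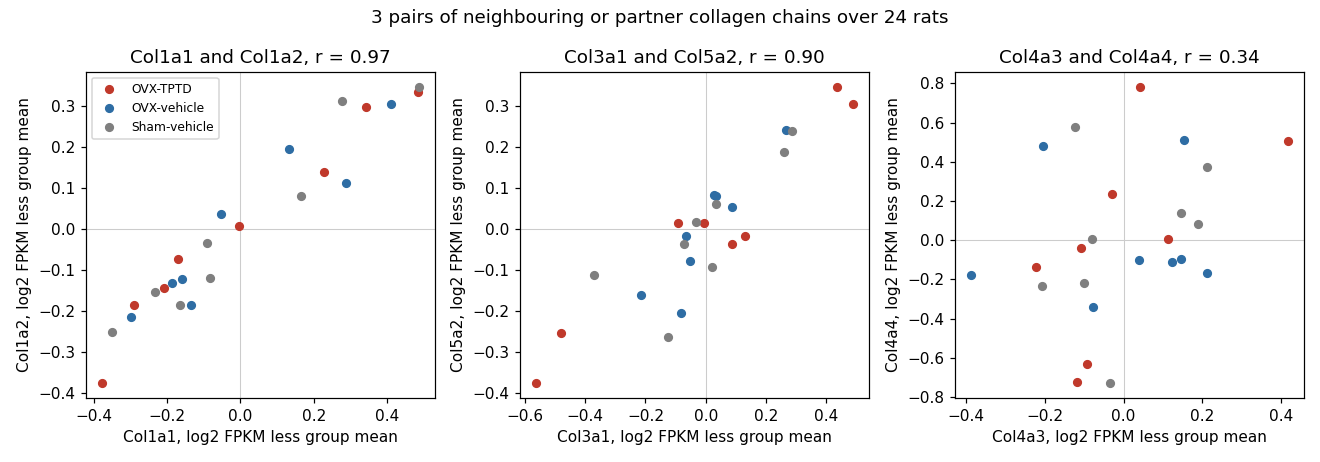
Log2 FPKM less the group mean of Col1a1 and Col1a2, of Col3a1 and Col5a2, and of Col4a3 and Col4a4 (one gene on each axis), with 1 point per rat coloured by OVX-TPTD, OVX-vehicle and Sham-vehicle group. The first pairs lie along a line in all groups (r of 0.966 and 0.904), and the points of Col4a3 and Col4a4 scatter (r of 0.338).

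Col4a3 and Col4a4 are set head to head, so that 1 stretch of DNA lies upstream of both. In the RefSeq annotation of the GRCr8 build, 412 bases separate their starts on chromosome 9, and the 250 bases upstream of each share 88 (91323740 to 91323827). Their transcripts followed each other less closely than the chains of type I collagen (r = 0.338, rho = 0.381, permutation p = 0.106 and 0.0667, adjusted p = 0.128 and 0.1; 0.584, 0.0177 and 0.310 within OVX-TPTD, OVX-vehicle and Sham-vehicle rats; 0.234 without the 2 farthest rats). The 18.9 counts of Col4a4 per rat limit what this pair can show. RefSeq upstream sequences were matched for 21 of the 26 collagens, and not for Col1a1, Col2a1, Col3a1, Col6a2 and Col14a1. The shared stretch is shown by the sequences of Col4a3 (chr9:91323740-91323989, plus strand) and Col4a4 (chr9:91323578-91323827, minus strand), and Col1a2 (chr4:33518307-33518556, plus strand) and Col5a2 (chr9:55090152-55090401, minus strand) stand for the block that moved together. Capitals mark the motifs searched on both strands, which do not overlap in these sequences. The CCAAT box was read as CCAAT, or as ATTGG on the other strand. The GC box was read as GGGCGG, or as CCGCCC on the other strand. The TATA box was read as TATAAA, or as TTTATA on the other strand. Each sequence runs 5′ to 3′ and ends at the base before the start of the transcript.
Col4a3: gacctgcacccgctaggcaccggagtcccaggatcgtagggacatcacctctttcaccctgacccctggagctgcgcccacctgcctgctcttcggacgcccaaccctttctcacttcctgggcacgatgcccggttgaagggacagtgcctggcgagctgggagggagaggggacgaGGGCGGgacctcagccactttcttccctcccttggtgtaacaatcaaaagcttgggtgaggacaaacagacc
Col4a4: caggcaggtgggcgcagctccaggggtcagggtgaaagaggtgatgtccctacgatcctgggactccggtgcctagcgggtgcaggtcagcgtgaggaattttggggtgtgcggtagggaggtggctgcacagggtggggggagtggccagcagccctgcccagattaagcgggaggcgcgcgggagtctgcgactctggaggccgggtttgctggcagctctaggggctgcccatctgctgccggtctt
Col1a2: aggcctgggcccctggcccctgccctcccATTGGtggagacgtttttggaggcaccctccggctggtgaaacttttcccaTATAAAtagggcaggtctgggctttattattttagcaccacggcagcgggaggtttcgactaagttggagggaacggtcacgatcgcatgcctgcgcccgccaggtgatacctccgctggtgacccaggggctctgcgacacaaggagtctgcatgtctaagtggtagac
Col5a2: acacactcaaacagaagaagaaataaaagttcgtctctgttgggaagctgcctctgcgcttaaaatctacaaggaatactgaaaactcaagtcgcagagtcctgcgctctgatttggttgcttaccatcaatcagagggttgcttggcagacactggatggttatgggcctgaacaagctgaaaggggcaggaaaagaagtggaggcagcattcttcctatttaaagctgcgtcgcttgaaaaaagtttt

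Col4a3 holds 1 GGGCGG, whose first base is 72 bases before the start, and Col4a4 holds none of these motifs, the shared 88 bases included. Col1a2 holds a CCAAT box (as ATTGG) 221 bases and a TATAAA 170 bases before the RefSeq start, and Col5a2 holds none. GGGCGG was found upstream of 12 of 21 collagens (57.1%) and of 32.4% of 27457 promoters of the same length. CCAAT was found in 5 of 21 (23.8%, against 34.3%) and TATAAA in 2 of 21 (9.52%, against 13.1%). These are matches of letters, counted without a test.

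Genes that build, cut and bind collagen were read as lists. Of 29 measured genes of collagen synthesis (modifying, folding and cross-linking enzymes and chaperones), none passed an adjusted p of 0.05 in any comparison. At an unadjusted edgeR p under 0.05 were 2 of 29 (6.9%) in each comparison, against 3.65% of all genes for OVX-TPTD with OVX-vehicle, 15.1% for OVX-TPTD with Sham-vehicle and 4.82% for OVX-vehicle with Sham-vehicle. After ovariectomy both were lysyl oxidases, enzymes that start the cross-links of collagen and elastin. Loxl1 had 1.82, 2.05 and 2.82 FPKM (lowest, median, highest) in OVX-vehicle rats, against 2.38, 2.73 and 3.83 FPKM in Sham-vehicle rats, a log2 difference of -0.41 (SE 0.131, edgeR adjusted p = 0.806). Loxl4 had 0.159, 0.255 and 0.344 FPKM in OVX-vehicle rats, against 0.168, 0.424 and 0.893 FPKM in Sham-vehicle rats (log2 difference -0.87, SE 0.28, edgeR adjusted p = 0.806). In OVX-TPTD rats Loxl4 averaged 0.251 ± 0.0752 FPKM, close to the OVX-vehicle mean of 0.255 ± 0.0529 FPKM. Lox itself averaged 1.84 ± 0.562 FPKM in OVX-TPTD rats and 1.37 ± 0.425 FPKM in OVX-vehicle rats (log2 difference 0.43, SE 0.2, edgeR adjusted p = 0.995). P3h2, a collagen prolyl hydroxylase and the other gene at p under 0.05 in this comparison, averaged lower, with 2.34 ± 0.409 FPKM in OVX-TPTD rats and 2.85 ± 0.778 FPKM in OVX-vehicle rats (log2 difference -0.28, SE 0.137, edgeR adjusted p = 0.995). OVX-vehicle replicate 5 held 4.70 FPKM of P3h2, against a group median of 2.68 FPKM. Without that rat the log2 difference of P3h2 was -0.145. Sparc, a collagen-binding matrix protein and the most abundant of the list, was level at 697, 696 and 679 FPKM in OVX-TPTD, OVX-vehicle and Sham-vehicle rats.

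Of 8 tested genes of collagen breakdown, 2 had an edgeR p under 0.05 between OVX-TPTD and OVX-vehicle rats (against 3.65% of all genes), 4 between OVX-TPTD and Sham-vehicle rats (2 higher, 2 lower, against 15.1%) and 1 between OVX-vehicle and Sham-vehicle rats (against 4.82%), again with no adjusted p under 0.05. Mmp13, a collagenase that cuts fibrillar collagen, had 0.455, 0.595 and 0.780 FPKM in OVX-TPTD rats, 0.512, 0.885 and 4.50 FPKM in OVX-vehicle rats, and 0.406, 0.942 and 7.73 FPKM in Sham-vehicle rats. All OVX-TPTD rats were low, and the other groups had both low rats and rats several-fold higher. The log2 difference was -1.71 from OVX-vehicle (SE 0.598, edgeR adjusted p = 0.995) and -2.05 from Sham-vehicle (SE 0.591, edgeR adjusted p = 0.222). Fap, a fibroblast protease that trims collagen fragments, had 1.77, 2.33 and 3.98 FPKM in OVX-TPTD rats, against 1.74, 1.87 and 2.04 FPKM in OVX-vehicle rats (log2 difference 0.43, SE 0.14, edgeR adjusted p = 0.995). Mmp14, a membrane-bound collagenase and the most abundant, averaged 28.8 ± 3.55, 31.2 ± 2.65 and 32.7 ± 2.13 FPKM in OVX-TPTD, OVX-vehicle and Sham-vehicle rats. Mrc2, a receptor that takes up collagen fragments, averaged 2.13 ± 0.392 FPKM in OVX-vehicle rats and 2.75 ± 0.629 FPKM in Sham-vehicle rats (log2 difference -0.38, edgeR adjusted p = 0.857).

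None of the 6 tested collagen receptors had an edgeR p under 0.05 in any comparison. The most abundant, the integrin chain Itgb1, averaged 149, 147 and 146 FPKM in OVX-TPTD, OVX-vehicle and Sham-vehicle rats. Among 8 tested small leucine-rich proteoglycans, which sit on collagen fibrils, 1 (12.5%) had a p under 0.05 in each comparison, which is below the 15.1% of all genes for OVX-TPTD with Sham-vehicle, and stands against 3.65% for OVX-TPTD with OVX-vehicle and 4.82% for OVX-vehicle with Sham-vehicle. These were Bgn, with 29.7 ± 5.11 FPKM in OVX-vehicle and 36.3 ± 6.90 FPKM in Sham-vehicle rats (log2 difference -0.30, edgeR adjusted p = 0.864), Aspn, with 3.48 ± 1.18 FPKM in OVX-TPTD and 2.51 ± 0.409 FPKM in OVX-vehicle rats (0.46, edgeR adjusted p = 0.995), and Lum between OVX-TPTD and Sham-vehicle rats (0.27, edgeR adjusted p = 0.289). Of the 6 tested laminins and other basement membrane partners of type IV collagen, 3 had an edgeR p under 0.05 between OVX-TPTD and Sham-vehicle rats and none did in the other comparisons, among them Lamb2 (log2 difference -0.19) and Lama1 (0.18), beside the background of 15.1% in that comparison. The basement membrane genes summed to 62.5 ± 5.24 FPKM in OVX-TPTD rats, 63.9 ± 4.72 FPKM in OVX-vehicle rats and 67.5 ± 5.12 FPKM in Sham-vehicle rats.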

How the data were processed

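L4 and L5 dorsal root ganglia of 24 rats were sequenced as poly(A) RNA with a stranded, paired-end protocol. Per the labels and the study's methods, the authors aligned reads to the rn6 build with TopHat2 (2.0.14), after bcl2fastq (1.8.4), and quantified genes in Genedata Expressionist. The authors deposited an FPKM value and an estimated count per entry and rat. In the counts, 86.4% of values were whole, to within 0.001, and all were rounded before testing. The 3 groups hold 8 rats each, taken as replicates.

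Counts were tested with edgeR (4.0.16, R 4.3.3) by a quasi-likelihood fit over all 3 groups, after TMM scaling and a filter on low counts, with Benjamini-Hochberg adjustment over 12645 genes. The SE given with an edgeR log2 difference was derived from that difference and the F statistic of its test, so it restates the p. The tests were run on simulated data first. An exact two-sided permutation test compared mean log2 FPKM over 12870 divisions of 16 rats, for which the smallest p is 0.0001554, and no entry passed after adjustment. Correlations used log2 FPKM less the group mean. Alternatives were DESeq2 (1.42.0), limma (3.58.1) on log2 of FPKM plus 0.1 or 1, no filter, no TMM scaling, 2 groups alone, a replicate block, each rat left out in turn, and the rat of conflicting label moved or left out. Summing both Col1a2 entries was chosen after seeing the data.

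All collagens are named with a level. Values by rat or group were given for the 6 most abundant, those with a p under 0.05 by either test and the listed pairs. Of the pairs, Col4a4 has no level by group. For the pathway lists, values came from the 2 smallest p and the most abundant gene. The members and the lists were chosen with earlier results of these data known. Coordinates of genes are those of rn6 in the deposited table, and upstream sequences are RefSeq's for GRCr8. Values of some single marker genes are not reported here.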

Additional observations from a re-analysis of the deposited data

Results flagged for a closer look

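In each group of 8 rats, the gap between the highest or lowest rat and its nearest neighbour was set against the range of the group. Of 78 groups (26 collagens in 3 groups), 7 had a gap above Dixon's critical value for 8 samples, where chance gives about 1 in 20. None of these gaps was tested for a cause.

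OVX-TPTD replicate 3, the rat with the lowest summed collagen, stood low for Col14a1 (10.1 FPKM, next 13.4) and Col16a1 (16.5 FPKM, next 21.3), both collagens of fibril surfaces. OVX-TPTD replicate 1 stood high for Col4a3 (0.843 FPKM, next 0.683). OVX-vehicle replicate 7 stood high for the minor fibrillar chain Col11a1 (5.44 FPKM, next 4.09), and OVX-vehicle replicate 8 for Col9a1 (0.635 FPKM, next 0.367). Sham-vehicle replicate 3 stood high for the multiplexin Col15a1 (30.8 FPKM, next 20.7) and for Col7a1, the chain of anchoring fibrils (0.542 FPKM, next 0.210).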

How the results depend on the processing

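The 11 differences of named collagens kept their direction in all 374 alternatives run (34 settings), and none reached an adjusted p under 0.05. They were chosen for a small p in these same rats. Each setting refits all or nearly all rats of the groups compared, so a kept direction was largely fixed in advance. The cause of the shifts that follow was not tested. Between OVX-vehicle and Sham-vehicle rats, 1 gene was called by edgeR, against 6 with DESeq2, 2 without the filter and 2 with limma at either pseudocount, and 0 with the 2 groups alone, with the replicate block or with OVX-vehicle replicate 1 counted as sham. Collagens at p under 0.05 were 2, against 1 with DESeq2 and 1 with that rat as sham. Between OVX-TPTD and OVX-vehicle rats, DESeq2 called 1 gene where edgeR called 0. Between OVX-TPTD and Sham-vehicle rats, edgeR called 4 genes, against 36 with DESeq2, 9 without TMM scaling, 7 with limma on log2(FPKM + 1), 10 with the replicate block and 1 with that rat as sham. The exact permutation count of collagens in this comparison was 2, and 1 after TMM rescaling or above a mean of 1 FPKM.

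With the rats left out in turn, genes called ranged from 0 to 2 between OVX-vehicle and Sham-vehicle, were 0 to 0 between OVX-TPTD and OVX-vehicle, and ranged from 1 (without Sham-vehicle replicate 4 or OVX-TPTD replicate 6) to 14 (without OVX-vehicle replicate 1) between OVX-TPTD and Sham-vehicle. OVX-vehicle replicate 1 is in neither group of that last comparison, and enters it only through the fit shared by all 3 groups. Collagens at p under 0.05 ranged from 1 to 3, from 4 to 6 and from 2 to 6 in the same comparisons, and their median log2 difference from -0.0235 to 0.0501, from -0.0314 to 0.0515 and from -0.0509 to 0.0278. For edgeR counts of collagens under the alternative settings, the share of all genes at that p is not given. Without OVX-vehicle replicate 1 the exact permutation counts were 2, 4 and 2 of 26 collagens, beside 505, 814 and 1812 of 13024 entries. With all rats they were 2, 3 and 2 of 26, beside 667, 496 and 1812 entries. With 1 rat left out, the Col9a1 log2 difference between OVX-TPTD and Sham-vehicle ranged from 1.13 to 1.46. Over all 34 settings this difference ranged from 0.32 to 1.46, with an adjusted p between 0.0813 and 0.325 by the test of each setting.

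On log2(FPKM + 1), which compresses low values, log2 differences shrank by over 1.5 times for several genes. Between OVX-TPTD and OVX-vehicle these were Col9a1 (0.23), Col4a3 (-0.11), Mmp13 (-0.68), Lox (0.26) and Fap (0.28). Between OVX-TPTD and Sham-vehicle they were Col9a1 (0.32), Col2a1 (-0.17), Mmp13 (-0.79), Loxl4 (-0.21) and Lama1 (0.10), and between OVX-vehicle and Sham-vehicle Loxl4 (-0.20). On log2(FPKM + 0.1), the differences of Loxl4 and Mmp13 shrank by over 1.5 times as well.

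The replicate numbers did not pair the samples (correlations of -0.09 to 0.11 between same-numbered rats). With the replicate block, collagens at p under 0.05 numbered 2, 4 and 5. Depth limits Col4a4, Col6a4, Col9a1 and Col26a1, with 18.9, 12, 26 and 8.04 counts per rat.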
